A study of Mus musculus with 10 samples.

Results

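The nuclear genes for the subunits of mitochondrial respiratory complexes II to V were examined in macrophages of the small intestine after experimental stroke. Members were every gene of the deposited table whose symbol began with the family names of these complexes (Sdha to Sdhd, Uqcr, Uqcc, Cyc1, Cycs, Cox4 to Cox8 and Atp5). This gave 50 of the 17279 genes listed, and all 50 passed the filter on low counts together with 16949 genes in all. Complex II had 4 genes, complex III 9, complex IV 14 and complex V 15, so that 42 members encode subunits. The other members were 3 complex III assembly factors (Uqcc1, Uqcc2 and Uqcc3), cytochrome c (Cycs), Atp5s and Atp5sl, which are named after ATP synthase, and the processed pseudogenes Atp5l-ps1 and Atp5l2-ps. The family was chosen by its measured difference between the groups, after members such as Atp5j2 had been seen lower after stroke. The differences between groups are therefore given as a description, and the FDR values and counts of the fit over all genes are printed to describe them, not as a test of the family.

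Mice of the C57BL6/J strain underwent sham surgery or permanent middle cerebral artery occlusion (pMCAO), a model of ischaemic stroke in which an artery of the brain is blocked. At 24 h after surgery, macrophages of the lamina propria positive for CX3CR1-GFP were sorted by flow cytometry from the small intestine, taken whole. RNA was sequenced in 5 sham and 5 pMCAO libraries. Replicate 1 of each group is named as a pool in the labels, the labels call the libraries biological replicates without naming the mice in each, and age and sex are not given for these libraries in the sources used here. The spread between libraries is the only error measured.

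Total counts were 18894151 to 60665972 in the sham libraries and 6430643 to 28672285 in the pMCAO libraries, with pMCAO 1 the smallest. Levels below are given as CPM, the count of a gene relative to its library's total, scaled by trimmed mean of M-values (TMM) with factors between 0.842 and 1.27. All 14 macrophage markers on the list were present in each library, with a summed level of 6411 to 17860 CPM in the sham group and 8775 to 16970 CPM in the pMCAO group. Among them is Cx3cr1, the gene named in the CX3CR1-GFP label of the sort. Markers of other cells were also present. The summed B and plasma cell markers (7 of 7 listed) ranged from 825 to 24830 CPM in sham and from 1131 to 27370 CPM in pMCAO libraries, the enterocyte markers (10 of 10) from 340 to 937 and from 143 to 1403 CPM, and the secretory epithelial markers (7 of 7) from 421 to 1217 and from 215 to 2674 CPM. Lower sums were found for T cell markers (6 of 6 listed, 195 to 411 CPM over all libraries), dendritic cell markers (5 of 5, 83.4 to 408 CPM), stromal, muscle and endothelial markers (7 of 7, 44.3 to 102 CPM) and eosinophil and neutrophil markers (3 of 6, 4.18 to 34.8 CPM, with Epx, S100a9 and Ly6g not in the table). Xist stood at 2237 CPM in sham 5 and 4686 CPM in pMCAO 4, and at no more than 4.88 CPM in the other 8 libraries. In bulk RNA of sorted cells, fewer cells of a type and less RNA per cell cannot be told apart.

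The respiratory chain sits in the inner mitochondrial membrane. Complex II passes electrons from succinate to ubiquinone, complex III passes them on to cytochrome c, complex IV passes them from cytochrome c to oxygen, and complex V, the ATP synthase, uses the proton gradient to make ATP. Complexes III, IV and V combine subunits encoded by nuclear genes with a few encoded by mitochondrial DNA, whereas the subunits of complex II are all nuclear. In macrophages the balance between this pathway and glycolysis shifts with activation, and succinate handled by complex II also acts as a signal.

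Nuclear respiratory factor 1 (NRF1) and ETS-family factors such as GABPA are known to bind upstream of many genes of these complexes. Of the 50 members, 36 matched by symbol an entry of the RefSeq promoter table (GRCm38.p6), which holds the 250 bases before to 50 bases after each start. The NRF1 letters GCGCANGCG, searched on both strands, were found in 14 of the 36 members (38.9%) and in 14.2% of the 10638 genes of the deposited table that have an entry. The ETS letters CCGGAAG, on both strands, were found in 12 members (33.3%) and in 18.8% of those genes, and 6 members (16.7%) against 3.38% held both. The letters TATAAA, on both strands, were found in 1 member, Atp5l (2.78%), and in 9.57% of the genes. Matches of the first pair of motifs may overlap by a base, and each match is a description of letters only. The stretches below are from the members with at least 2 matches that lie within 200 bases before the RefSeq start and also outside the gene as GENCODE annotates it. Matches are in capitals, and matches nearer to the start, as in Sdha, Atp5h and Uqcr11, are not shown where the annotated gene covers them. They lie at chr5:115349062-115349125 for Cox6a1, chr13:74350282-74350343 for Sdha and chr9:50603884-50603933 for Sdhd, all on the minus strand and all outside the annotated genes.
Cox6a1: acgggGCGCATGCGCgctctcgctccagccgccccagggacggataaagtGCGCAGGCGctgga
Sdha: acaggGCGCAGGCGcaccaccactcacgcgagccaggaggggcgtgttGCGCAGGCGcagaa
Sdhd: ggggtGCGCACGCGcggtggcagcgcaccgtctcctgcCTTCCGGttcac
The log2 fold changes of pMCAO against sham for these 3 genes were -0.45 ± 0.20 (SE) for Cox6a1, -0.11 ± 0.14 for Sdha and -0.11 ± 0.23 for Sdhd (n = 5 per group).

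The subunit genes differed widely in level. Per kb of transcript, which allows genes to be compared, the level in the sham group was highest for Atp5e of complex V at 501 ± 82.4 CPM per kb (SD, n = 5), followed by Uqcrh of complex III at 317 ± 65.6 and Cox6a1 of complex IV at 315 ± 41.7. The last 2 did not differ beyond their spread. Complex II genes were between 24.3 CPM per kb for Sdhc and 76.2 for Sdhb, below the highest gene of every other complex. Lengths are those of 1 annotated transcript a gene, and Uqcrq and Atp5g1 also have much longer annotated forms (1521 against 405 nt and 4715 against 596 nt), so their level per kb is uncertain. Only 4 of the 42 subunit genes were at 10 CPM or less, namely Cox6a2, Cox6b2, Cox7a1 and Atp5g2.

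**Figure D1:**
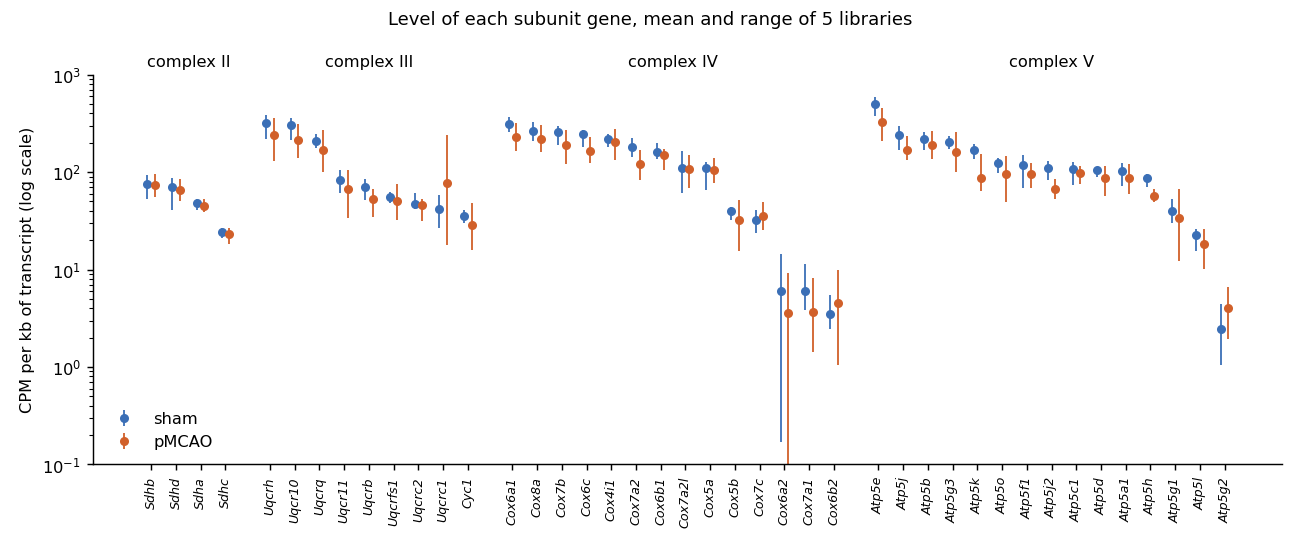
Level of each subunit gene in CPM per kb of transcript (log axis), with the mean (point) and the lowest to highest library (bar) of the 5 sham and the 5 pMCAO libraries. Genes are ordered within each complex by their sham level, which runs from 501 CPM per kb for Atp5e to 2.48 for Atp5g2, and the bar of Cox6a2 in the pMCAO group runs off the axis to 0.

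Between the groups, most of these genes were at a slightly lower level after pMCAO. The log2 fold change of pMCAO against sham was below 0 for 42 of the 50 members, beside 50.6% of all genes tested. Its median was -0.29 over the members and -0.01 over all genes. No member was called at a false discovery rate (FDR) of 0.05 in edgeR, where 0% of all genes were called and the members' FDR values were 0.922 to 0.999, and DESeq2 and limma-voom called 0 members as well. At an unadjusted p under 0.05, 9 members were lower, beside 2.45% of all genes, and 0 were higher, beside 2.26%. These 9 were Atp5e, Atp5h, Atp5j, Atp5j2 and Atp5k of complex V, Cox6a1, Cox6c and Cox7a2 of complex IV, and the assembly factor Uqcc2. The 2 groups did not overlap for 1 member, Atp5h, in which each pMCAO library stood lower than any sham library, beside 0.537% of all genes. The same in the other direction held for 0 members, beside 0.448%. As the rule used this contrast, nothing is read from these counts.

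The 5 pMCAO libraries were not alike. Averaged over the 42 subunit genes on the log2 CPM scale, pMCAO 4 was the lowest of all libraries at 5.18, followed by pMCAO 1 at 5.48 and pMCAO 5 at 5.60. Those 3 lay below the lowest sham library, sham 4 at 5.76, whereas pMCAO 2 at 6.17 and pMCAO 3 at 5.91 lay within the sham range of 5.76 to 6.20. The group means were 5.98 ± 0.17 (SD, n = 5) for sham and 5.67 ± 0.38 for pMCAO. Gene by gene, 31 of the 42 were below every sham library in pMCAO 4, 26 in pMCAO 1 and 24 in pMCAO 5, against 10 in pMCAO 3 and 1 in pMCAO 2. Among the sham libraries, sham 4 stood lowest, with 21 of the 42 genes below the other sham libraries, a comparison with fewer libraries than for pMCAO. The share of all genes below the sham libraries was not counted for single libraries, so these counts are not read as particular to the subunits. The library pMCAO 4 is the one with high Xist, pMCAO 1 is the pool with the smallest total, and their part in the result was not tested. Leaving out pMCAO 4 moved the members' median log2 fold change from -0.29 to -0.17, leaving out both pools moved it to -0.17, and leaving out both libraries with high Xist gave -0.20.

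The enterocyte marker sum, from cells rich in mitochondria, was 143 CPM in pMCAO 4 and 231 CPM in pMCAO 5, both below every sham library, 499 CPM in pMCAO 1 and 1403 CPM in pMCAO 2, the highest of all. The secretory marker sum was 215 CPM in pMCAO 4, the lowest, and 2674 CPM in pMCAO 3, the highest. The B and plasma cell marker sum was 27370 CPM in pMCAO 2, the highest of all, and 8183, 1131, 1366 and 6765 CPM in pMCAO 1, 3, 4 and 5. It exceeded the macrophage marker sum in pMCAO 2 (11440 CPM) and in sham 2 (24830 against 10040 CPM), and was below it in each other library. The part of the epithelial and of the B and plasma cell markers in the subunit levels was not tested. None of the marker lists held a gene at an unadjusted p under 0.05 between the groups.

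**Figure D2:**
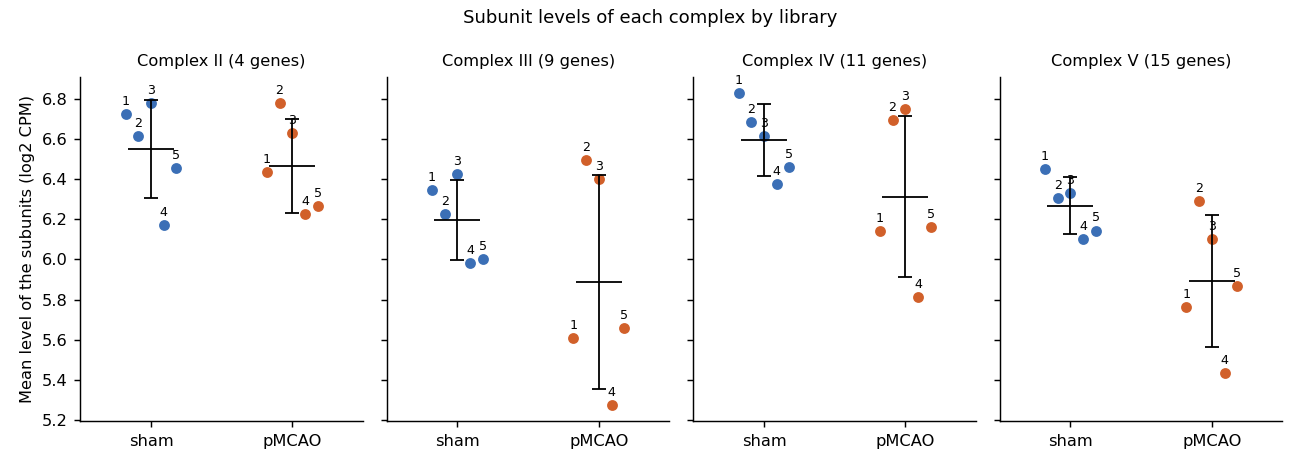
Mean log2 CPM of the subunit genes of each complex in the 5 sham and 5 pMCAO libraries, with points numbered by replicate and lines for the group mean ± SD. The 11 complex IV genes leave out the 3 tissue-restricted forms, and pMCAO 1, 4 and 5 lie below every sham library in complexes III, IV and V but not in complex II, with pMCAO 3 (6.103) also just below the lowest sham library (6.104) in complex V.

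Complex II had the median fold change nearest to 0 of the 4 complexes. All 4 genes had a log2 fold change just below 0, beside 50.6% of all genes below 0. Values ran from -0.11 for Sdhd to -0.05 for Sdhb, with a median of -0.08 and no value beyond its standard error. The median ran from -0.17 without sham 4 to -0.02 without pMCAO 4. Sdha, the flavoprotein that oxidises succinate, stood at 149, 140, 154, 119 and 143 CPM in sham 1 to 5 and at 140, 154, 112, 131 and 118.5 CPM in pMCAO 1 to 5. The groups overlapped, with pMCAO 3 and 5 just under the lowest sham library, sham 4. Sdhb, the iron-sulphur subunit, stood at 92.7, 103, 106, 60.4 and 74.0 CPM in the sham libraries and at 69.3, 106, 110, 62.8 and 71.6 CPM in the pMCAO libraries, so that the lowest value was a sham library and the highest a pMCAO library. Sdhc and Sdhd, the membrane anchors that bind haem, averaged 77.0 ± 7.16 and 86.3 ± 23.5 CPM (SD, n = 5) in sham against 73.6 ± 10.8 and 80.2 ± 18.9 CPM in pMCAO. Their log2 fold changes were -0.06 ± 0.15 (SE) and -0.11 ± 0.23. The sign was the opposite for Sdhb in 7 and for Sdhd in 3 of the 23 alternative analyses.

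In complex III the small supernumerary subunits had lower values than most of the core subunits. The 5 supernumerary genes (Uqcr10, Uqcr11, Uqcrb, Uqcrh and Uqcrq) had log2 fold changes from -0.49 to -0.32, with a median of -0.40. The 4 core and catalytic genes (Uqcrc1, Uqcrc2, Uqcrfs1 and Cyc1) had a median of -0.08. Without pMCAO 3, which sets the value of Uqcrc1, these medians were -0.51 and -0.17, and without pMCAO 4 they were -0.26 and 0.02. Over all 9 the median was -0.33, and it ran from -0.19 without pMCAO 4 to -0.55 without pMCAO 2. No complex III gene reached an unadjusted p under 0.05.

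Uqcr10, a small subunit of the membrane part at chr11:4701973-4704342, had the lowest fold change of the complex. Its level was 146, 142, 155, 93.2 and 118 CPM in sham 1 to 5 and 69.3, 134, 122, 60.9 and 80.0 CPM in pMCAO 1 to 5. The libraries pMCAO 1, 4 and 5 were below every sham library and the other 2 were within the sham range, with a log2 fold change of -0.49 ± 0.24 (SE). Uqcrh, the acidic hinge protein that helps cytochrome c dock, also had pMCAO 1, 4 and 5 below every sham library, at 181, 211, 196, 119 and 159 CPM in sham and 109, 198, 168, 71.1 and 109 CPM in pMCAO. Its log2 fold change was -0.40 ± 0.26.

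Cyc1, the cytochrome c1 haem subunit, stood at 62.3, 46.1, 60.3, 48.2 and 55.4 CPM in sham and at 44.3, 73.4, 43.9, 24.0 and 30.9 CPM in pMCAO libraries. All but pMCAO 2 were below the sham range, and pMCAO 2 was above it, with a log2 fold change of -0.33 ± 0.26. Uqcrfs1, the Rieske iron-sulphur protein, and Uqcrc2, a core protein, had log2 fold changes of -0.13 ± 0.21 and -0.04 ± 0.18.

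Uqcrc1, the other core protein at chr9:108936633-108949623, was the only complex III gene with a higher mean after pMCAO, and a single library set that value. It stood at 75.6, 66.6, 96.4, 44.7 and 59.6 CPM in the sham libraries. In the pMCAO group it stood at 29.6, 118, 402, 39.8 and 42.5 CPM, so that pMCAO 3 was far above all others and pMCAO 1, 4 and 5 were below every sham library. The log2 fold change was 0.88 ± 0.63 (SE) with all libraries and -0.26 without pMCAO 3. No 100-base stretch of its transcript was shared with another annotated transcript, and pMCAO 3 is the library with the highest secretory epithelial marker sum, whose part in this value was not tested.

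The 3 complex III assembly factors help to make or stabilise cytochrome b, the mitochondrially encoded subunit. Uqcc2 stood at 17.2, 22.4, 27.7, 15.5 and 17.6 CPM in sham and at 6.89, 11.5, 15.9, 8.70 and 12.2 CPM in pMCAO libraries. Only pMCAO 3 reached the sham range, and the log2 fold change of -0.86 ± 0.27 (SE) was the second lowest of all the members. Uqcc3 followed in direction at 14.7 ± 5.07 CPM (SD, n = 5) in sham and 9.78 ± 4.39 CPM in pMCAO, with a log2 fold change of -0.58 ± 0.36. Uqcc1 stood at 12.1 ± 4.59 and 13.7 ± 2.81 CPM, with a log2 fold change of 0.17 ± 0.31 that went to -0.03 without sham 4.

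Cytochrome c, the soluble carrier between complexes III and IV, is encoded by Cycs. It was low in these counts, at 6.53, 10.9, 9.56, 12.1 and 9.12 CPM in sham and 8.94, 9.13, 3.34, 7.47 and 7.79 CPM in pMCAO libraries. The lowest value was pMCAO 3 and the other 4 pMCAO libraries were inside the sham range, with a log2 fold change of -0.39 ± 0.32 (SE). Part of the transcript cannot be told from other genes, as 24.7% of its 100-base stretches also occur elsewhere, among them in the predicted gene Gm10053.

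**Figure D3:**
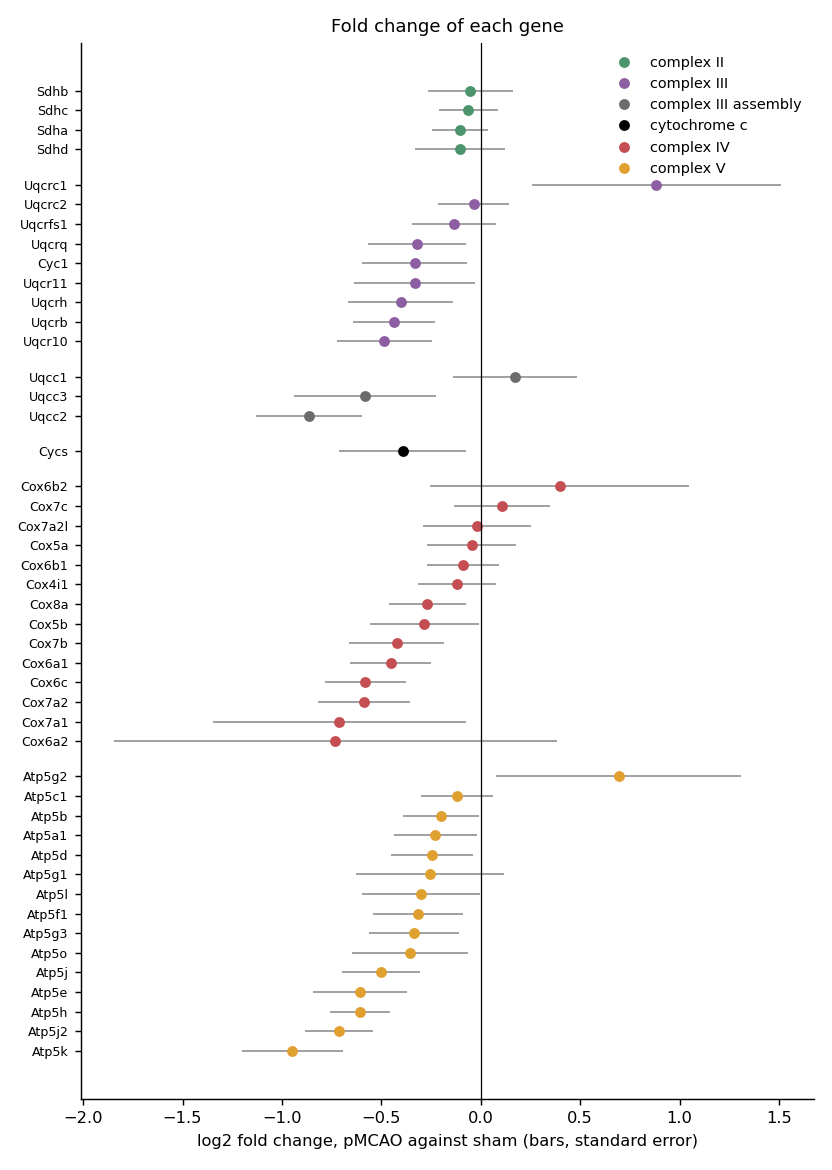
Log2 fold change of pMCAO against sham with its standard error for the 42 subunit genes, 3 complex III assembly factors and cytochrome c, grouped by complex. The 4 complex II genes lie within 0.11 of 0, and the 15 complex V genes run from -0.95 for Atp5k to 0.69 for Atp5g2.

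Complex IV genes had log2 fold changes from -0.73 for Cox6a2 to 0.40 for Cox6b2, and from -0.59 to 0.11 among the 11 genes without the tissue-restricted forms. Over its 14 genes the median was -0.28, with 12 below 0 (50.6% of all genes) and 3 lower at an unadjusted p under 0.05 (2.45% of all genes), and over the 11 genes it was -0.27. The median over 14 genes was -0.15 without pMCAO 4 and -0.43 without pMCAO 3. Cox6c, a small membrane subunit at chr15:35925886-35938246, stood at 137, 136, 124, 124 and 92.0 CPM in sham and at 68.0, 116, 97.7, 62.4 and 65.7 CPM in pMCAO libraries. Again pMCAO 1, 4 and 5 were below the sham range and pMCAO 2 and 3 were inside it, with a log2 fold change of -0.58 ± 0.20 (SE).

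Cox7a2, the widely expressed form of a small membrane subunit, had a similar difference. It stood at 114, 146, 139, 105 and 94.7 CPM in sham and at 55.1, 112, 106, 63.3 and 61.3 CPM in pMCAO libraries, with a log2 fold change of -0.59 ± 0.23. Cox6a1, the widely expressed form of a regulatory subunit and 1 of the 3 genes whose upstream bases are shown above, stood at 191, 209, 186, 148 and 165 CPM in sham and at 98.9, 164, 181, 94.1 and 118 CPM in pMCAO libraries. Its log2 fold change was -0.45 ± 0.20, with the same 3 pMCAO libraries below the sham range.

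Cox4i1, Cox6b1 and Cox7a2l had values within their standard error of 0. Cox4i1, the largest nuclear subunit, stood at 184, 173, 170, 134 and 162 CPM in sham and at 131, 206, 178, 98.6 and 142 CPM in pMCAO libraries, with a log2 fold change of -0.12 ± 0.20. Cox6b1, which faces the intermembrane space, had -0.09 ± 0.18, with the opposite sign in 3 of the 23 alternative analyses. Cox8a, another small membrane subunit, had -0.27 ± 0.19, close to the median of the complex, with 3 pMCAO libraries below every sham library. Cox7a2l is listed here as a factor of supercomplexes of complexes III and IV, and its function in this mouse strain was not examined. Cox7a2l stood at 118 ± 39.8 CPM (SD, n = 5) in sham and 116 ± 36.5 CPM in pMCAO, with a log2 fold change of -0.02 ± 0.27. Its sign was the opposite in 11 of the 23 alternative analyses, so no direction is given for it. That of Cox4i1 turned in 1.

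The forms of complex IV known from muscle or testis were at a low level, below 10 CPM in each library. Cox6a2, the heart and muscle form, took 0.0618 to 4.47% of the summed Cox6a1 and Cox6a2 level in sham libraries and 0 to 3.70% in pMCAO libraries. It had 0 counts in pMCAO 3, which allows up to 0.303 CPM, the level of 3 counts there, for counting error only. Cox7a1, the muscle form beside Cox7a2, took 1.03 to 4.15% and 0.899 to 2.95%, and Cox6b2, the testis form beside Cox6b1, took 1.17 to 2.81% and 0.752 to 4.88%. Log2 fold changes of -0.73 ± 1.11, -0.71 ± 0.63 and 0.40 ± 0.65 (SE) for Cox6a2, Cox7a1 and Cox6b2 were no larger than about 1 standard error, and that of Cox6b2 was -0.11 without pMCAO 5. Cox4i2, Cox8b and Cox8c were not listed in the table.

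Complex V held Atp5k, the member with the lowest fold change. Of its 15 genes, 5 were lower at an unadjusted p under 0.05, beside 2.45% of all genes. The median log2 fold change of the complex was -0.32, with 14 of 15 genes below 0 (50.6% of all genes). Without pMCAO 4 the median was -0.20, and without both pools it was -0.17. By position in the enzyme, the medians were -0.21 for the 2 catalytic head genes, -0.25 for the 3 genes of the central stalk, -0.25 for the 3 c-ring genes, -0.43 for the 4 genes of the peripheral stalk and -0.71 for the 3 small membrane subunits. Without pMCAO 4 these were -0.12, -0.16, -0.05, -0.36 and -0.65.

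The catalytic head had the highest counts. Atp5b, the beta subunit at chr10:128083273-128090391 in which ATP is formed, stood at 491, 435, 404, 324 and 450 CPM in sham and at 366, 504, 355, 260 and 348 CPM in pMCAO libraries. Only pMCAO 4 was below the sham range and pMCAO 2 was above it, with a log2 fold change of -0.20 ± 0.19 (SE). Atp5a1, the alpha subunit, had -0.23 ± 0.21. In the central stalk, Atp5c1 (gamma) had -0.12 ± 0.18 and Atp5d (delta) -0.25 ± 0.21. Atp5e, the epsilon subunit and the most abundant member per kb, stood at 207, 251, 210, 229 and 158 CPM in sham and at 88.8, 191, 176, 91.5 and 145 CPM in pMCAO libraries. Its log2 fold change was -0.61 ± 0.23, and pMCAO 1, 4 and 5 were below every sham library.

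The small membrane subunits stand beside the c-ring where ATP synthase dimers form. Atp5k, subunit e at chr5:108433244-108434448, had the lowest log2 fold change of all members, -0.95 ± 0.25 (SE). It stood at 61.0, 70.4, 72.4, 56.8 and 50.7 CPM in sham 1 to 5 and at 23.8, 57.4, 29.9, 24.0 and 26.1 CPM in pMCAO 1 to 5. The other 4 pMCAO libraries were close together and below every sham library, whereas pMCAO 2 was within the sham range. Atp5j2, subunit f at chr5:145183698-145192062 and a gene on which the family was chosen, stood at 124, 109, 111, 80.0 and 98.6 CPM in sham and at 58.5, 81.7, 67.9, 50.8 and 59.9 CPM in pMCAO libraries. Only pMCAO 2 lay above the lowest sham library, and the log2 fold change was -0.71 ± 0.17.

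In the peripheral stalk, which holds the head still against the turning ring, Atp5h (subunit d, at chr11:115415689-115419962) was the gene without overlap between the groups. It stood at 57.9, 54.6, 59.5, 55.0 and 43.8 CPM in sham and at 34.3, 41.6, 31.1, 33.8 and 36.7 CPM in pMCAO libraries, with a log2 fold change of -0.61 ± 0.15 (SE). Of its 100-base stretches 32.7% are not unique, and many of them recur in the processed pseudogene Gm10250, which stood at 79.4 ± 12.7 CPM (SD, n = 5) in sham and 51.3 ± 8.29 CPM in pMCAO. Summed over the pair, all 5 pMCAO libraries were again below every sham library, at 134 ± 17.5 against 86.9 ± 12.1 CPM. Atp5j, coupling factor 6, had a log2 fold change of -0.50 ± 0.20, Atp5o -0.36 ± 0.29 and Atp5f1 (subunit b) -0.32 ± 0.22.

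**Figure D4:**
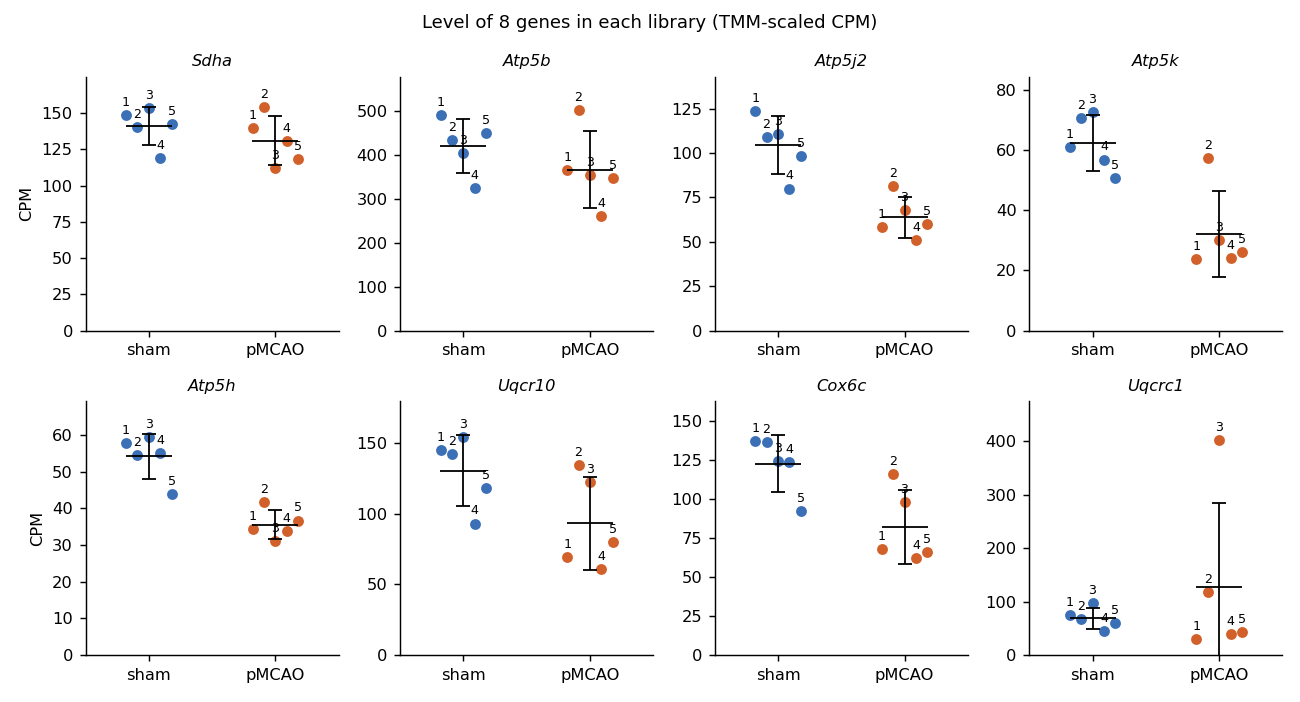
Level in TMM-scaled CPM of 8 genes in each of the 5 sham and 5 pMCAO libraries (points, numbered by replicate), with lines for the mean ± SD and axes from 0. Sdha and Atp5b overlap between the groups, Atp5h does not overlap, and the pMCAO mean of Uqcrc1 is set by pMCAO 3 at 402 CPM.

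The c-ring that turns in the membrane is built from 1 protein made from 3 genes. Translated from the annotated transcripts, the last 75 residues of Atp5g1, Atp5g2 and Atp5g3 were identical in each pair, whereas their 225 coding bases were 84.9% identical between Atp5g1 and Atp5g2, 80% between Atp5g1 and Atp5g3 and 78.7% between Atp5g2 and Atp5g3. The first 90 of these coding bases are shown because they let reads be told apart between genes with the same product, and the 22 positions that differ are in capitals. The genes lie at chr11:96068852-96075670, chr15:102662864-102672352 and chr2:73908447-73911326 of GRCm38, all on the minus strand.
Atp5g1: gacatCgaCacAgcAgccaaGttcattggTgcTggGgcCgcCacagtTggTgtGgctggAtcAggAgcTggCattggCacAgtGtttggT
Atp5g2: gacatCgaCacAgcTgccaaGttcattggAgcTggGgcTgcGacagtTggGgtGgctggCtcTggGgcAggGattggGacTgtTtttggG
Atp5g3: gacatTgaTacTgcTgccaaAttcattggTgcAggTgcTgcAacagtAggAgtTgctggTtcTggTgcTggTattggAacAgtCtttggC
Of the summed level of the 3 genes, Atp5g3 took 82.8 to 88.6% in sham and 73.2 to 89.1% in pMCAO libraries. Atp5g1 took 11.1 to 16.01% in sham and 9.02 to 25.6% in pMCAO libraries, with the highest share in pMCAO 3. Atp5g2 took 0.237 to 1.28% and 0.420 to 2.39%, but every 100-base stretch of its transcript also occurs in another gene, so that its level is uncertain. The log2 fold changes were -0.34 ± 0.23 (SE) for Atp5g3, -0.25 ± 0.37 for Atp5g1 and 0.69 ± 0.62 for Atp5g2, all with overlapping groups. That of Atp5g1 was -0.68 without pMCAO 3 and -0.05 without pMCAO 4.

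Some members had near copies elsewhere in the genome with higher counts than their own. Of the 50 members, 30 shared no 100-base stretch with another annotated transcript and 14 shared more than 10%. Cox7c, a small complex IV subunit, took 9.29 to 18.8% of its summed level with the processed pseudogene Gm12338, which stood at 144 ± 23.1 CPM (SD, n = 5) in sham against 17.6 ± 3.45 CPM for Cox7c itself. Atp5l, subunit g of complex V, took 10.5 to 16.1% of its sum with the processed pseudogene Gm10221. The log2 fold change was 0.11 ± 0.24 (SE) for Cox7c and -0.37 ± 0.17 for Gm12338, and it was -0.30 ± 0.30 for Atp5l and -0.51 ± 0.24 for Gm10221. Levels of Cox7c, Atp5l, Atp5g1, Atp5g2, Atp5h and Cycs are therefore uncertain, as reads common to a gene and its near copy may have been placed on either. Other members also shared more than 10%, such as Atp5o (30.3%, with another entry named Atp5o) and Uqcrc2 (22.7%, with Pdzd9). Atp5f1 (16.8%) and Uqcrb (15.8%) shared no more than 10% with any single gene name. Whether these partners are near copies was not examined, so the effect on these levels is not known.

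Within the groups, the subunit genes moved together from library to library. After each group's mean was taken out, the mean pairwise Pearson correlation over the 10 libraries was 0.59 in complex II, 0.61 in complex III, 0.66 in complex IV and 0.45 in complex V, and 0.60 over the 38 subunit genes above 10 CPM. Over all 9046 genes above 10 CPM it was 0.00814. These correlations share the libraries, the scaling and the few libraries that stood lowest, and are a description without a test. Cox4i1 at 0.97, Cox7b at 0.97 and Uqcr10 at 0.96 were the genes closest to the mean of the other subunits, whereas Sdha at 0.33, Cox6b1 at 0.38, Uqcrb at 0.40 and Atp5h at 0.42 were the least close. Thus Atp5h, whose groups did not overlap, was among the genes that followed the shared order of libraries least. The spread was larger after pMCAO for 32 of the 38 genes, with a median coefficient of variation of 29.4% against 17.8% in sham. The share of all genes with a larger spread after pMCAO was not counted, so this is not read as a trait of the subunits. The smallest total counts were those of pMCAO libraries, and their part in the spread was not tested.

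The 42 subunit genes mostly have short transcripts, with a median of 697 nt against 2512 nt over all genes with a length. Fold change and length were related across the 42 subunit genes (Spearman's rho 0.40) and more weakly across 16864 genes (rho 0.13), as a description across genes that share the 10 libraries. Subunit genes under 700 nt had a median log2 fold change of -0.40 (21 genes), those of 700 to 1200 nt -0.31 (10 genes) and those over 1200 nt -0.12 (11 genes), beside -0.09, -0.14 and 0.01 over all genes of these lengths. The 5 supernumerary genes of complex III are in the first class and Sdha, Sdhc, Sdhd, Atp5a1 and Atp5b in the last, so that the kind of subunit and the length of its transcript cannot be told apart. A further fit had an offset in each library for transcript length, taken from the longest annotated transcript of each gene. That length can exceed the representative length used above. In this fit the median over all members was -0.22, with 35 of 50 below 0, beside 48.7% of all genes.

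**Figure D5:**
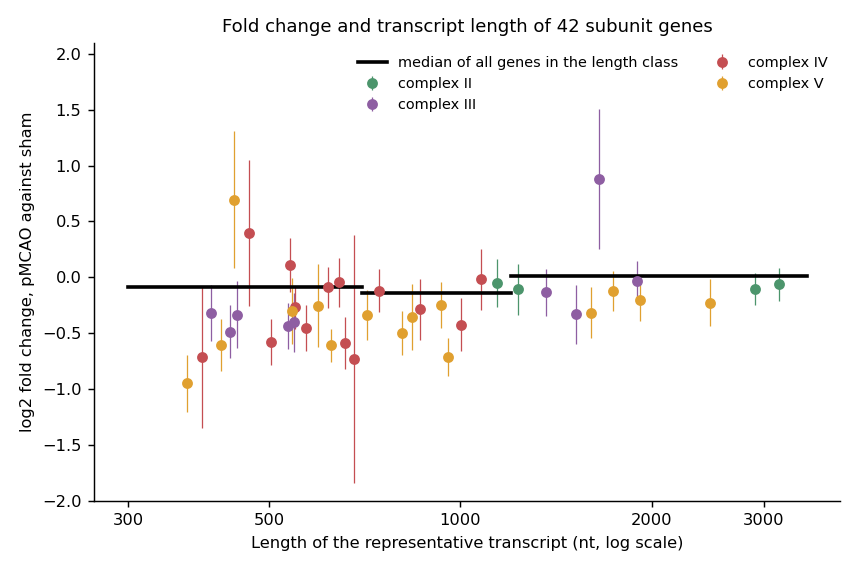
Log2 fold change of pMCAO against sham (bars, standard error) of the 42 subunit genes by length of the representative transcript (log axis), coloured by complex. Black lines give the median of all genes under 700 nt (-0.09), of 700 to 1200 nt (-0.14) and over 1200 nt (0.01), and the shorter subunit genes lie mostly below them.

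Subunits and partners whose symbols lie outside the family names were also below 0, in 4 of 4 genes, beside 50.6% of all genes. Usmg5, the small DAPIT subunit of ATP synthase, stood at 29.99, 31.6, 28.3, 29.1 and 16.1 CPM in sham and at 12.2, 25.2, 15.7, 13.3 and 12.3 CPM in pMCAO libraries, with a log2 fold change of -0.78 ± 0.26 (SE) and an unadjusted p under 0.05. All pMCAO libraries but pMCAO 2 were below the sham range. Ndufa4, now counted with complex IV, had -0.59 ± 0.33, 2010107E04Rik, a small ATP synthase subunit, -0.45 ± 0.26, and Atpif1, the inhibitor of ATP synthase, -0.37 ± 0.27. The median of these 4 was -0.52.

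Assembly factors had a median nearer to 0 than the subunits. Of 35 on the list, 33 were in the table and tested (Sco2 and Pet117 were not), 2 were lower at an unadjusted p under 0.05 (2.45% of all genes), 0 were higher (2.26%) and 22 were below 0 (50.6%), with a median log2 fold change of -0.15. The 2 were Pet100, a complex IV factor, at -0.68 ± 0.30 (SE), and Tmem70, a factor of the c-ring of complex V, at -0.64 ± 0.19. Tmem70 stood at 37.2, 45.2, 34.5, 50.8 and 35.6 CPM in sham and at 26.4, 35.3, 19.9, 24.0 and 24.99 CPM in pMCAO libraries, with only pMCAO 2 inside the sham range. By complex, the medians were -0.14 for the 4 complex II factors, 0.18 for 3 further complex III factors, -0.16 for 22 complex IV factors and -0.61 for 4 complex V factors.

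Regulators of mitochondrial gene expression had a median log2 fold change of 0.07, with 4 of 10 below 0 (50.6% of all genes). At an unadjusted p under 0.05 there were 0, beside 2.45% of all genes lower and 2.26% higher. Nrf1 and Gabpa, whose products bind the letters shown above, had 0.28 ± 0.24 and 0.27 ± 0.19 (SE). Ppargc1a, a coactivator of mitochondrial biogenesis, was at 3.24 ± 2.53 CPM (SD, n = 5) in sham and 1.57 ± 1.31 CPM in pMCAO, with -1.04 ± 0.75. The mitochondrially encoded subunits mt-Cytb of complex III and mt-Co1 of complex IV had log2 fold changes of -0.04 ± 0.30 and 0.05 ± 0.37. Levels of mt-Co2, mt-Co3, mt-Atp6 and mt-Atp8 were at most 9.37 CPM in any library, against at least 3317 CPM for mt-Cytb and 6611 CPM for mt-Co1, and were not used further.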

How the data were processed

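Total RNA of 10 libraries was sequenced in paired reads after removal of ribosomal RNA, from 2.0 ng of RNA each per the labels. Raw gene-level counts (whole numbers) were deposited together with CPM values, for which the authors divided each count by the sum of its column. The submitters' processing notes name GRCm38 (mm10), STAR, featureCounts and limma, and versions, roles and strandedness are not given in the sources used here. The deposited table also holds the authors' fold changes, mean expression, p-values and FDR, which were not used, and 0 columns of per-sample values were left unused. The paper describes epithelial libraries and not these macrophage libraries.

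Counts were analysed in edgeR 4.0.16 (R 4.3.3) with filterByExpr, TMM and the quasi-likelihood test of pMCAO against sham over all 16949 genes, with Benjamini-Hochberg adjustment. The standard error is the size of the log2 fold change divided by the root of F. The fit was tested on simulated counts. DESeq2 1.42.0, limma-voom (limma 3.58.1) and sva 3.50.0 served as alternatives. Scores average log2 CPM with a prior count of 2. Transcript lengths and shared 100-base stretches came from GENCODE M21 (GRCm38), with lengths for 99.5% of genes, and promoters from RefSeq. Levels per kb and length classes used the representative transcript, and the transcript length offset used the longest annotated transcript of each gene. Genes named were, in each complex, the most abundant per kb and those with the lowest and highest fold change, with Atp5j2, the complex II, catalytic head, cytochrome and c-ring genes and the paralogous forms always included. Pathway genes at an unadjusted p under 0.05 were also named. Uqcrfs1, Uqcrc2, Uqcc3, Cox6c, Cox7b, Cox7c, Uqcrb and the remaining complex V genes, with the assembly, regulator and mitochondrially encoded genes quoted above that threshold, were named after their values were seen. Members, gene lists and tests were chosen with earlier results of these data known. Intervals and floors cover counting error only.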

Additional observations from a re-analysis of the deposited data

Results flagged for a closer look

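In 68 group measures of 5 libraries, 3 had a library far from the other 4, by a gap to its nearest neighbour above 0.71 of the group's range. Chance alone would give about 3.4 at 1 in 20. Gaps are on the log2 CPM scale, also where levels are printed in CPM. The measures did not cover every member. Uqcrc2, for example, was not among them, and it stood at 116 CPM in sham 1 against 79.8 to 83.6 CPM in the other sham libraries. Atp5k was high in pMCAO 2 (57.4 CPM against 23.8 to 29.9 CPM in the other pMCAO libraries), with a gap of 0.738 of the range. Cycs was low in pMCAO 3 (3.34 CPM against 7.47 to 9.13 CPM), with a gap of 0.799. The mean level of the 3 complex III assembly factors was low in sham 4 (3.07 log2 CPM against 3.96 to 4.21 in the other sham libraries), with a gap of 0.78.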

How the results depend on the processing

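Across 23 alternatives, 0 members were called at an FDR of 0.05 and no median of a complex changed sign. The number below 0 stayed between 35 and 46 of 50, beside 50.6% of all genes with all libraries. The number lower at an unadjusted p under 0.05, 9 with all libraries, was 4 without both pooled libraries (1.37% of all genes) and 5 to 17 when 1 library was left out, with 17 without pMCAO 2 (4.19% of all genes) and 5 without sham 2, pMCAO 1 or pMCAO 4. Members below every sham library, 1 with all libraries, were 2 with upper-quartile scaling (0.555% of all genes), 4 without both libraries with high Xist (1.72%) and 1 to 5 when 1 library was left out, with 5 without pMCAO 2 (1.75%) and 4 without sham 5 (1.16%), against 0.537% of all genes with all libraries. Assembly factors lower at that threshold, 2 with all libraries, were 1 with the transcript length offset, 1 with that offset and the replicate block together, and 1 to 4 when 1 library was left out. The cause of these moves was not tested.

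With the replicate number as a replicate block, 13 members were lower at an unadjusted p under 0.05 (4.09% of all genes), 43 were below 0 (51.8% of all genes) and the median was -0.36. Libraries of the same number deviated together only weakly (correlations of -0.01 to 0.37), and 2 of 5 sham libraries correlated best with their own number, so the numbers were not taken to pair the libraries. Of the named members' 642 alternative fold changes, 641 moved by less than 1 SD, the exception being Uqcrc1 without pMCAO 3 (-0.26). The 4 subunit genes at 10 CPM or less had a median coefficient of variation of 55.4% in sham and 82.5% in pMCAO libraries.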

Other observations

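Atp5sl and Atp5s, which are named after ATP synthase, had log2 fold changes of 0.20 ± 0.36 (SE) and 0.26 ± 0.50 between pMCAO and sham, with 13.7 ± 3.16 against 15.8 ± 10.02 CPM (SD, n = 5) for Atp5sl and 5.99 ± 4.02 against 7.23 ± 3.32 CPM for Atp5s. The highest Atp5sl level of all libraries was 33.0 CPM in pMCAO 3, the library in which Uqcrc1 was also highest. The pseudogenes Atp5l-ps1 and Atp5l2-ps stood at 0.643 ± 0.250 and 4.41 ± 2.73 CPM in sham and at 0.680 ± 0.218 and 2.50 ± 0.448 CPM in pMCAO libraries.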
